A study of Drosophila melanogaster with 18 samples.

Results

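To follow insulin signalling in the fly head after appetitive training, RPKM values of the insulin-like peptides, of the signalling genes downstream of their receptor and of known targets of the transcription factor FOXO were examined in 18 single heads of Drosophila melanogaster. The members were chosen by name, with earlier results of these data known, as Ilp2, Ilp3, Ilp5, Ilp6, InR, chico, foxo, Thor and ImpL2. Of these 9 genes, 8 were matched by symbol among the 17559 genes of the deposited table, and all 8 passed the filter that left 11062 genes for testing. InR, the gene of the insulin receptor, had no row under its current symbol or identifier. A row under another identifier, FBgn0013984, has its exonic length and may be InR, and its values are given apart from the 8 matched members.

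In appetitive olfactory conditioning, hungry flies meet an odor together with a sugar reward. The sucrose group was trained with sucrose and the sorbose group with sorbose, a sugar that tastes sweet to flies but does not feed them, and both were collected 4 h after training. The odor group, labelled naive and without sugar, is described in the study's text as starved flies that met octanol alone. Each group had 6 heads, described as female in the study's methods, and the labels give neither age nor genotype. The labels also give no collection time for the odor heads. The study's methods describe food given after training for its memory tests. Whether the flies sequenced here were fed in this way before collection is not stated. A difference between a trained group and the odor heads can therefore hold the sugar, the training, any feeding after training and the time of collection together. Both comparisons with odor share the same 6 odor heads. Nothing in the labels says whether the heads of a group came from separate trials, and the p-values measure only the spread between these heads.

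Insulin-like peptides are secreted hormones that report the fed state to the tissues of the fly. In the brain, a small cluster of median neurosecretory cells makes Ilp2, Ilp3 and Ilp5, whereas Ilp6 comes mainly from the fat body, the insect counterpart of liver and adipose tissue. The receptor signals through the docking protein Chico and the kinase Akt, which keeps FOXO out of the nucleus, and when insulin signalling is low FOXO enters the nucleus and switches on genes such as Thor.

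The data fell into transcripts that were lower in both trained groups than in the odor heads and transcripts that were not called in any comparison. The signalling genes chico and foxo, the FOXO target Thor and ImpL2, whose product binds insulin-like peptides outside the cell, were lower in sucrose heads and in sorbose heads than in odor heads. The 4 insulin-like peptides passed the test in none of the 3 comparisons. ImpL2 was the only member whose sucrose heads all lay below the sorbose heads, although that difference missed the threshold of an adjusted p of 0.05.

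**Figure D1:**
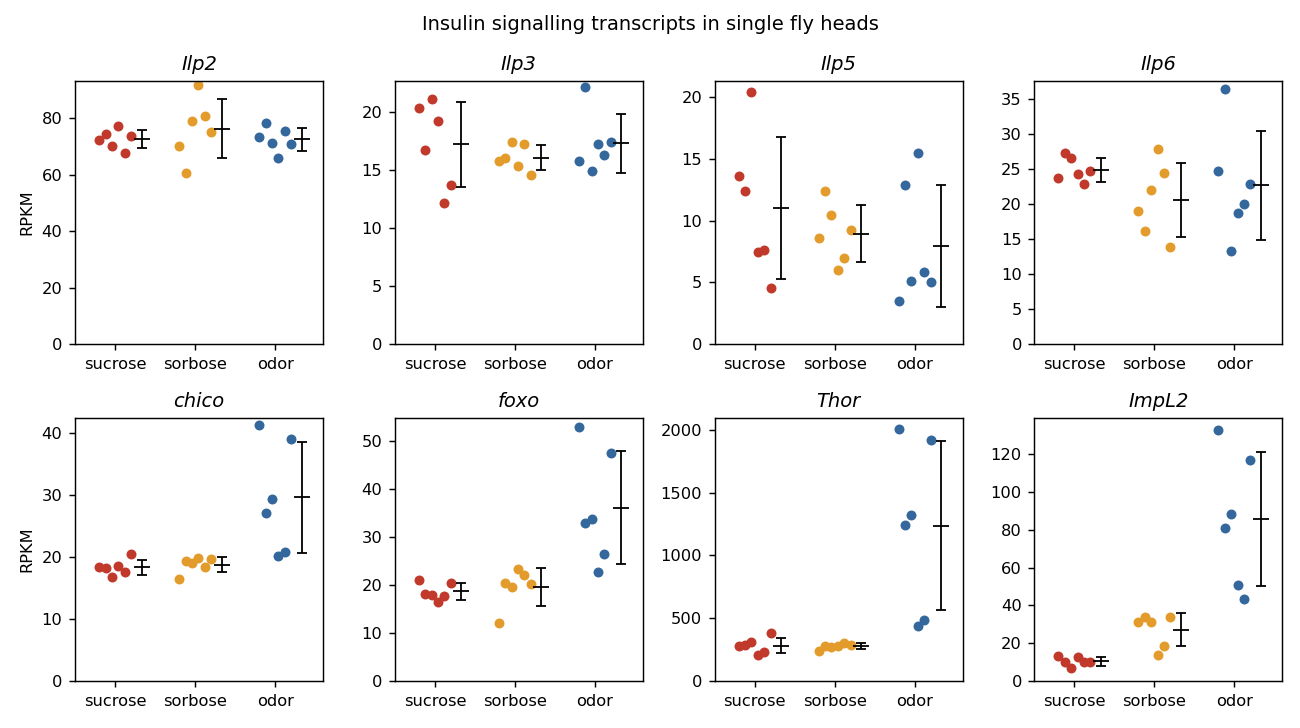
RPKM of the 8 members in single heads of the sucrose, sorbose and odor groups, each panel on its own linear axis from 0. Points are heads and the black bars show the mean and SD of 6 heads. The peptides in the upper row overlap between groups, and in the lower row the odor heads reach far above the trained heads, up to 2006 RPKM for Thor.

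The counts of members were set against those of all genes tested, as a description, since the members were chosen with earlier results of these data known. In sucrose against odor 4 of the 8 members were called lower and 0 higher (limma on log2(RPKM + 0.5), Benjamini-Hochberg adjusted p under 0.05), where 14.4% of all genes tested were called lower and 13.1% higher. In sorbose against odor 4 of 8 were again called lower and 0 higher, against 12.2% lower and 12.2% higher among all genes. In sucrose against sorbose 0 of 8 were called, in a comparison in which 0.00904% of genes, or 1 gene, passed the adjusted threshold by limma and 1102 genes had an unadjusted p under 0.05. The median log2 difference of the 8 members was -0.33 in sucrose against odor and -0.35 in sorbose against odor, beside -0.00 and 0.01 over all genes tested. Some genes are described below as lying wholly apart from the odor heads. The share of all genes tested that do so was not computed, so these are descriptions of single genes.

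Libraries held between 45.8 and 77.2 M mapped reads (M, 1000000), recovered from the steps in which RPKM change with 1 read. They were smaller in sucrose heads (54.3 ± 5.75 M) than in odor heads (65.7 ± 7.53 M, SD, n = 6 each, exact permutation test, two-sided, p = 0.0108 and 0.0325 after adjustment for 3 comparisons). Sorbose libraries (57.8 ± 6.85 M, n = 6) did not pass this test against either group. At these depths the members were read deeply, with between 97 and 454 reads per odor head for Ilp5, the member with the fewest, and 20418 to 111802 for Thor, the member with the most. Between heads of one group the chi-square of read counts per degree of freedom was 27.2 to 550, where sampling noise alone gives about 1, so that no head was counted as a repeat of another. Markers of neurons and of photoreceptors were called in 0 of 5 genes each in every comparison. Over all genes tested, 14.4% were called lower and 13.1% higher in sucrose against odor, and 12.2% each way in sorbose against odor. Between the sugars only 1 gene passed, so that 0 calls there are no result about these markers. Of 5 gut markers alphaTry and betaTry were listed at 0 in every head, Jon65Aiv and LManVI stayed at or below 0.0778 RPKM, and Amy-p, an amylase, ranged from 2.55 to 53.5 RPKM. In whole heads, fewer cells of a type and less RNA per cell cannot be told apart.

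Ilp2 was the most abundant of the 4 peptides. This gene lies on chromosome 3L (dm6, 9799698 to 9800440, plus strand) and codes for the insulin-like peptide most closely tied to growth and sugar balance. Its RPKM were 67.9 at the lowest, 73.0 at the median and 77.3 at the highest in sucrose heads, 60.7, 77.3 and 91.7 in sorbose heads, and 66.0, 72.4 and 78.3 in odor heads. The groups overlapped over nearly their whole range, and only the sorbose heads were spread widely, with the lowest and the highest value of all 18 heads. The log2 difference was 0.00 ± 0.08 (SE) in sucrose against odor (95% interval -0.16 to 0.16, limma adjusted p = 0.983) and -0.06 ± 0.08 in sucrose against sorbose (-0.22 to 0.10, adjusted p = 0.865). In sorbose against odor it was 0.06 ± 0.08 (-0.10 to 0.22, adjusted p = 0.581).

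Ilp3 lies next to Ilp2 on the opposite strand (3L, 9801298 to 9802120), and both sit inside CG32052, to which reads of nested genes were also counted. Any reads of CG32052 that fall in the spans of Ilp2 and Ilp3 cannot be told apart from theirs. The product of Ilp3 is a peptide of the same neurons. Its RPKM were 12.2 at the lowest, 18.02 at the median and 21.1 at the highest in sucrose heads, 14.6, 15.9 and 17.4 in sorbose heads, and 15.0, 16.8 and 22.2 in odor heads. Sucrose heads held both the lowest value and several of the highest, and the narrow sorbose range lay inside the sucrose range. The log2 difference was -0.03 ± 0.12 in sucrose against odor (limma adjusted p = 0.908), -0.10 ± 0.12 in sorbose against odor (adjusted p = 0.608) and 0.07 ± 0.12 in sucrose against sorbose (adjusted p = 0.908).

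Ilp5 (3L, 9823349 to 9823897, minus strand, inside CG43897) was the least abundant and the most variable of the peptides. Its reads came to between 0.463% and 2.46% of those listed for CG43897. Any reads of CG43897 that fall in the span of Ilp5 cannot be told apart from its own. It is the third of the peptides made by the median neurosecretory cells. RPKM were 4.54 at the lowest, 10.03 at the median and 20.4 at the highest in sucrose heads, 5.99, 8.92 and 12.4 in sorbose heads, and 3.48, 5.49 and 15.5 in odor heads. The groups overlapped, and in the odor group heads 2 and 4, with 12.9 and 15.5 RPKM, stood above the other 4, which had 5.82 RPKM or less. Its coefficient of variation was 51.9% in sucrose heads, 25.9% in sorbose heads and 61.9% in odor heads, against 4.49%, 13.7% and 5.83% for Ilp2 in the same libraries. The log2 difference of 0.48 ± 0.36 in sucrose against odor had a 95% interval from -0.27 to 1.23 (limma adjusted p = 0.343), the widest interval of the members in this comparison. In sorbose against odor it was 0.31 ± 0.36 (adjusted p = 0.569), and in sucrose against sorbose 0.17 ± 0.36 (adjusted p = 0.928).

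The RPKM of Ilp2, Ilp3 and Ilp5, which also serve as the markers of the insulin-producing neurons, summed to 87.7 to 112 in sucrose heads, 89.1 to 113 in sorbose heads and 91.4 to 113 in odor heads. The sum overlapped in all 3 groups. Of the peptides made elsewhere, Ilp4, Ilp7 and Ilp8 averaged 0.069, 0.332 and 0.405 RPKM over the 18 heads and were too low to be tested. Ilp1, a peptide known mainly from pupae, averaged 1.61 RPKM in sucrose heads, 1.48 in sorbose heads and 1.48 in odor heads and was not called in any comparison.

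Ilp6 lies on chromosome X (2331493 to 2334658, minus strand) within the span of Raf, and codes for a peptide of the fat body and of glia. Its RPKM were 22.9 at the lowest, 24.5 at the median and 27.3 at the highest in sucrose heads, 13.9, 20.5 and 27.9 in sorbose heads, and 13.3, 21.5 and 36.5 in odor heads. The sucrose heads formed a narrow band within the wider ranges of the other groups, and all 6 lay above the sorbose mean of 20.6 RPKM and the odor mean of 22.7 RPKM. The coefficient of variation was 6.85% in sucrose heads, 25.4% in sorbose heads and 34.4% in odor heads, and whether these spreads differ was not tested. The log2 difference was 0.30 ± 0.19 in sucrose against sorbose (95% interval -0.10 to 0.71, limma adjusted p = 0.651), 0.19 ± 0.19 in sucrose against odor (-0.21 to 0.59, adjusted p = 0.49) and -0.11 ± 0.19 in sorbose against odor (-0.51 to 0.29, adjusted p = 0.712).

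Most markers of the head fat body were higher in sucrose heads than in odor heads. The summed RPKM of the 4 matched markers of the head fat body (apolpp, Apoltp, Lsp2 and fon) ranged from 338 to 1104 in sucrose heads, 146 to 383 in sorbose heads and 73.5 to 328 in odor heads, and 3 of the 4 were called higher in sucrose against odor. In sorbose against odor only apolpp was called (152 ± 74.5 RPKM in sorbose heads and 38.3 ± 38.5 RPKM in odor heads, SD, n = 6 each), while Apoltp had 12.96 and 12.76 RPKM, fon 73.7 and 83.4 RPKM, and Lsp2 16.9 and 30.2 RPKM in sorbose and odor heads. apolpp, the precursor of the main lipoprotein of the blood, differed by 3.35 ± 0.57 in sucrose against odor (limma adjusted p = 0.000763). Of 5 glial markers, 3 were called higher and 1 lower in sucrose against odor, and 2 of 3 muscle markers and 2 of 3 yolk protein genes were called higher. In sorbose against odor 0 of 5 glial markers were called higher and 1 lower. There 2 of 3 muscle markers were again called higher, and 0 of 3 yolk protein genes were called. Over all genes tested, 13.1% were called higher and 14.4% lower in sucrose against odor, and 12.2% each way in sorbose against odor. Whether the counts of markers depart from these shares was not tested. The part of these cell types in the levels of Ilp6 and ImpL2 was not tested.

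ImpL2 had the largest difference of the members in sucrose against odor, was second to Thor in sorbose against odor, and was the one member whose sucrose and sorbose heads did not overlap. It lies on chromosome 3L (4224006 to 4236147, minus strand) and codes for a secreted protein of the immunoglobulin superfamily that binds insulin-like peptides and dampens the signal. Its RPKM were 6.69 at the lowest, 10.04 at the median and 13.2 at the highest in sucrose heads, 13.8, 31.3 and 34.0 in sorbose heads, and 43.2, 84.7 and 133 in odor heads. The 3 groups did not overlap, although the highest sucrose head, at 13.2 RPKM, and the lowest sorbose head, at 13.8 RPKM, nearly met. Sorbose heads 4 and 5, with 13.8 and 18.6 RPKM, stood below the other 4 sorbose heads, which had 31.1 RPKM or more.

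ImpL2 fell by 2.90 ± 0.28 on the log2 scale in sucrose against odor, which is 7.49-fold (limma adjusted p = 1.52e-05). In sorbose against odor it fell by 1.60 ± 0.28, which is 3.04-fold (adjusted p = 0.00226). In sucrose against sorbose the log2 difference was -1.30 ± 0.28 (95% interval -1.90 to -0.71), which is 2.47-fold lower in sucrose. Its limma p of 0.000242 became an adjusted p of 0.0943 over 11062 genes, and the gene stood at rank 26 by p-value. A complete separation of this kind, with all 6 sucrose heads below all 6 sorbose heads, was seen in 78 genes, or 0.705% of those tested. The like share for separation from the odor heads was not computed. The adjusted p of the difference between the sugars was 0.0152 with sample quality weights, and between 0.0152 and 0.124 over the 11 alternatives other than leaving out single heads. Its SE was pooled over all 3 groups and so holds the spread of the odor heads too. In fits of only the 2 groups compared, 0 members were called between the sugars. Exons make up 22.0% of the ImpL2 span, and since the deposited values count reads over the whole span, intronic reads are part of its RPKM.

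Thor was among the most abundant transcripts of the odor heads. The gene (2L, 3478434 to 3479612, plus strand) codes for the 4E-BP protein, which binds the cap-binding factor eIF4E and holds back translation, and it is a classic target of FOXO. Its RPKM were 205 at the lowest, 282 at the median and 379 at the highest in sucrose heads, 239, 281 and 306 in sorbose heads, and 441, 1281 and 2006 in odor heads. Every trained head lay below every odor head, and the odor heads fell into 4 heads of 1239 RPKM or more and 2 heads of 489 RPKM or less. By mean RPKM it took rank 262 of all genes in sucrose heads, 269 in sorbose heads and 32 in odor heads.

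Thor fell by 1.93 ± 0.32 on the log2 scale in sucrose against odor, which is 3.81-fold (limma adjusted p = 0.000662), and by 1.93 ± 0.32 in sorbose against odor, also 3.81-fold (adjusted p = 0.0019). All 6 heads of each trained group lay below the odor mean, but so did those of Amy-p, which was not called in either comparison. In sucrose against sorbose the log2 difference was -0.00 ± 0.32 with a 95% interval from -0.68 to 0.67 (adjusted p = 0.999). This interval also holds the wide spread of the odor heads, as the SE was pooled over all groups.

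The gene foxo (3R, 14056945 to 14087978, plus strand) codes for the transcription factor itself. Its RPKM were 16.4 at the lowest, 18.1 at the median and 21.1 at the highest in sucrose heads, 12.1, 20.4 and 23.3 in sorbose heads, and 22.8, 33.4 and 52.9 in odor heads. All sucrose heads lay below all odor heads, whereas the highest sorbose head slightly exceeded the lowest odor head. It fell by 0.88 ± 0.18 on the log2 scale in sucrose against odor (limma adjusted p = 0.00276) and by 0.83 ± 0.18 in sorbose against odor (adjusted p = 0.00587). The log2 difference between the sugars was -0.05 ± 0.18 (95% interval -0.44 to 0.34, adjusted p = 0.962). Exons make up 13.3% of the 31.0 kb span of foxo, the smallest share of the 8 members, and intronic reads are part of its RPKM too.

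The gene chico (2L, 10242512 to 10247078, minus strand) codes for the single insulin receptor substrate of the fly. Its RPKM were 16.8 at the lowest, 18.3 at the median and 20.5 at the highest in sucrose heads, 16.5, 19.2 and 19.8 in sorbose heads, and 20.2, 28.3 and 41.3 in odor heads. Trained heads lay in a narrow band. Every sorbose head lay below every odor head, and of the sucrose heads only the highest reached just above the lowest odor head. It fell by 0.63 ± 0.14 on the log2 scale in sucrose against odor (limma adjusted p = 0.00439) and by 0.59 ± 0.14 in sorbose against odor (adjusted p = 0.00819). It differed by -0.04 ± 0.14 between the sugars (95% interval -0.34 to 0.27, adjusted p = 0.966). All 380 exonic bases of the antisense RNA asRNA:CR44995 are shared with exons of chico, and its listed reads came to 91.7% to 93.9% of those of chico in every head. As reads were counted over whole genes, its listed reads include any that fall in its span outside these bases. As the kit did not keep the strand, the reads of the pair cannot be told apart.

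The row FBgn0013984 is named by none of the tables used here. Its RPKM came out as whole reads in all 18 heads with an exonic length of 11367 bases, or with its double, among all lengths from 200 to 30000 bases, and of the 24254 genes in the annotation only InR has exactly 11367 exonic bases. The row may therefore be InR under another identifier, but no source used here pairs them, and it was left out of the counts of members. Its RPKM were 5.69 at the lowest, 6.05 at the median and 8.95 at the highest in sucrose heads, 5.75, 6.86 and 7.18 in sorbose heads, and 8.99, 17.5 and 27.8 in odor heads. The trained groups lay below the odor heads and overlapped each other, and the highest sucrose head came close to the lowest odor head. The row fell by 1.26 ± 0.22 on the log2 scale in sucrose against odor (limma adjusted p = 0.000991) and by 1.23 ± 0.22 in sorbose against odor (adjusted p = 0.0027), and differed by -0.03 ± 0.22 between the sugars (adjusted p = 0.983).

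**Figure D2:**
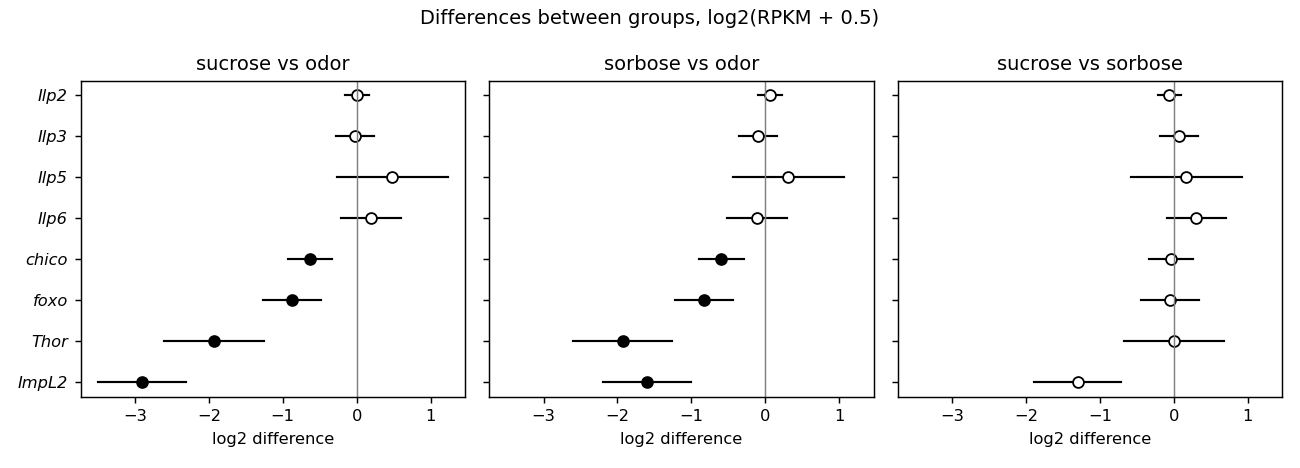
Log2 difference of log2(RPKM + 0.5) for the 8 members in sucrose against odor, sorbose against odor and sucrose against sorbose, with 95% intervals from limma. Filled points passed an adjusted p of 0.05. In both comparisons with odor chico, foxo, Thor and ImpL2 lie left of 0, and between the sugars ImpL2 alone has an interval, from -1.90 to -0.71, that leaves out 0.

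The odor heads differed among themselves more than the trained heads did in all 4 transcripts that fell. The coefficient of variation of chico was 6.61% in sucrose heads, 6.65% in sorbose heads and 30.1% in odor heads, and that of Thor 22.0%, 8.02% and 54.4%. To set this spread beside that of other genes, a first principal component was computed from 10992 genes outside the gene lists used here. Group means were left in, so the component also holds the difference between odor and trained heads. It therefore cannot tell whether the spread was particular to the members. The component held 37.5% of the variance of these genes. It ran from -26.6 to -0.816 in sucrose heads, -10.9 to -4.87 in sorbose heads and -4.84 to 53.7 in odor heads, with odor heads 1 and 6 at the upper end.

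Taken in falling order of that component, the odor heads had Thor at 2006, 1917, 1323, 1239, 489 and 441 RPKM. The order was the same for foxo, with 52.9, 47.6, 33.8, 32.95, 26.6 and 22.8 RPKM, and for chico, with 41.3, 39.1, 29.5, 27.1, 20.8 and 20.2 RPKM. ImpL2 followed it except that the last 2 heads changed places, with 133, 117, 88.2, 81.2, 43.2 and 50.9 RPKM. These 4 transcripts were thus highest in the odor heads that scored farthest from the trained heads on this component. Ilp5 ran nearly the opposite way, with 3.48, 5.04, 5.15, 12.9, 5.82 and 15.5 RPKM in the same heads. Ilp2, with 73.5, 70.8, 71.3, 78.3, 75.4 and 66.0 RPKM, and Ilp3 and Ilp6 followed neither order.

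Without odor heads 1 and 6 the same 4 members were still called in both comparisons with odor. The log2 difference of chico was then -0.39 in sucrose against odor and -0.35 in sorbose against odor (limma adjusted p = 0.0146 and 0.036), a change of over 1.5 times. That of Thor was -1.48 in both (adjusted p = 0.004 and 0.0123), that of foxo -0.61 and -0.56, and that of ImpL2 -2.58 and -1.28. What sets the odor heads apart from each other was not tested.

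**Figure D3:**
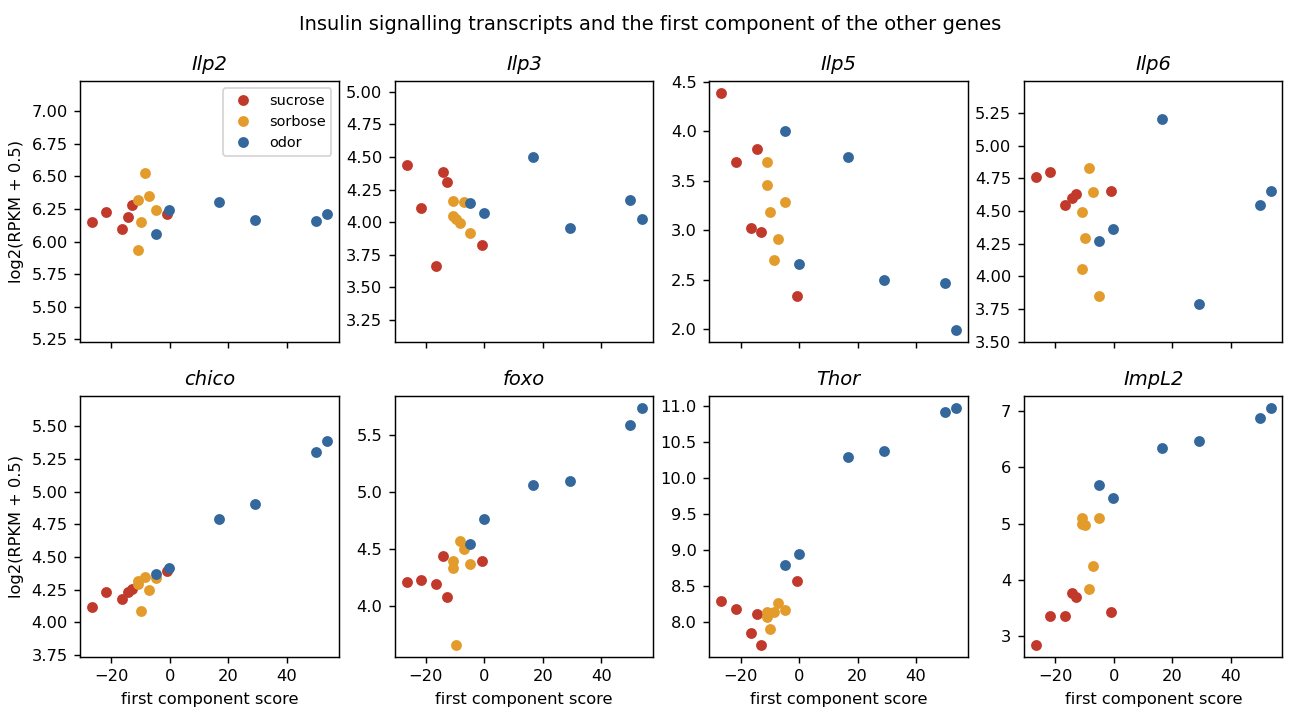
Log2(RPKM + 0.5) of each member against the score of the head on the first principal component of 10992 other genes, for sucrose, sorbose and odor heads, with each vertical axis spanning at least 2 log2 units. The 4 members in the lower row climb with the score among the odor heads, whose scores reach 53.7, Ilp5 declines, and Ilp2 stays flat.

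Whether members vary together between heads was asked with the group means removed, over all 28 pairs of the 8 members (18 heads, permutation of heads within groups, Benjamini-Hochberg adjusted over the pairs). By Pearson's r 3 pairs passed, and all 3 joined genes that fell in trained heads. For chico and foxo r was 0.878 (permutation p = 0.00015, adjusted 0.00336) and Spearman's rho was 0.816 (p = 0.00054, adjusted 0.0151). For foxo and Thor r was 0.813 (p = 0.00024, adjusted 0.00336) and rho 0.647 (p = 0.0143, adjusted 0.0998), and for chico and Thor r was 0.911 (p = 0.00228, adjusted 0.0213) and rho 0.62 (p = 0.021, adjusted 0.111). By rank, therefore, only the first of these pairs passed.

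The relations between these 3 genes were closest within the odor heads. For chico and foxo r was 0.438 in sucrose heads, 0.897 in sorbose heads and 0.989 in odor heads (n = 6 each), and for chico and Thor it was 0.39, 0.692 and 0.965. Leaving out the 2 heads farthest from the median of the first gene gave an r of 0.779 for chico and foxo, 0.843 for chico and Thor, and 0.872 for foxo and Thor. ImpL2 tracked the others among the odor heads, with r between 0.945 and 0.978, but not among the sorbose heads, where r with foxo was -0.49 and with Thor -0.418. Among the peptides, Ilp3 with Ilp5 (r = 0.617, permutation adjusted p = 0.0932) and Ilp2 with Ilp6 (r = 0.586, permutation adjusted p = 0.0901) did not pass after adjustment. All pairs share library and depth.

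**Figure D4:**
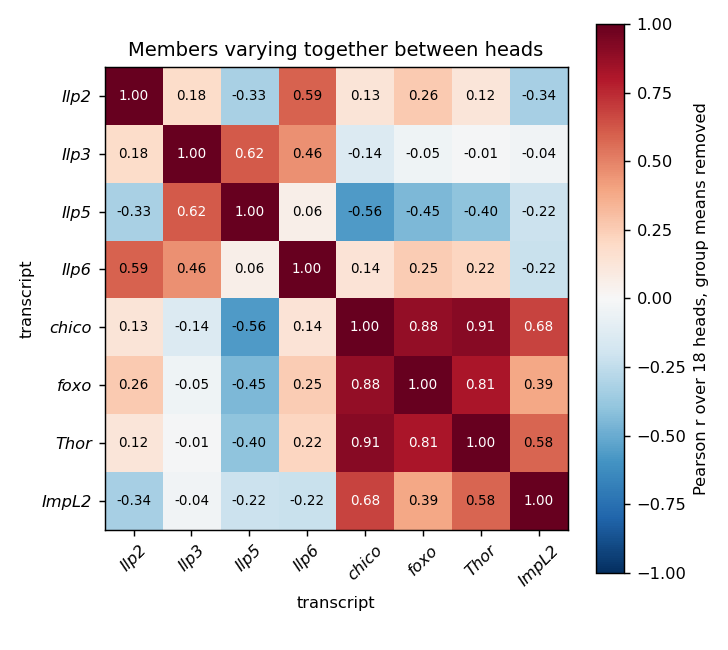
Pearson r of log2(RPKM + 0.5) between the 8 members over 18 heads, after removal of the group means. The block of chico, foxo and Thor holds the highest values, from 0.81 to 0.91, and the peptides show no pair above 0.62.

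Outside the members, transcripts that followed each one over the 18 heads were named as a description, by the highest Pearson r. Closest to Thor were the row FBgn0013984 (r = 0.983), which may be InR, Reg-5 (0.981) and CG31683 (0.981). Closest to ImpL2 were GIIIspla2 (0.963), which codes for a secreted phospholipase, CG15337 (0.952) and Lpin (0.933), the fly lipin of fat storage. GIIIspla2 showed the same order of groups as ImpL2, at 23.6 ± 3.59 RPKM in sucrose heads, 97.0 ± 35.4 in sorbose heads and 376 ± 191 in odor heads (SD, n = 6 each).

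Closest to foxo were KCNQ, a potassium channel gene, and mlt (0.989 each), followed by ana1 (0.981). Closest to chico were CG7824 (0.993), CG6689 (0.991) and Ankle2 (0.991). For Ilp6 the closest was Raf (0.977), but Raf contains Ilp6, and the reads of Ilp6 came to between 43.3% and 65.5% of those listed for Raf, so that the likeness rests in part on shared reads. Ilp5 was followed by CG30377 (0.937), and Ilp2 by Fdx1 (0.806) and by the ribosomal protein gene RpL7A (0.801). With group means removed, Ilp3 was followed most closely by Indy, the citrate transporter gene known for its part in lifespan (0.959), and ImpL2 by Pvf1, a growth factor gene (0.842).

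Other genes of the pathway moved with chico and foxo. Of 17 such genes listed, 13 were tested, and 7 were called lower and 1 higher in sucrose against odor and 7 lower and 0 higher in sorbose against odor, with 0 called between the sugars. Over all genes tested, 14.4% were called lower and 13.1% higher in sucrose against odor, and 12.2% each way in sorbose against odor. The list was chosen with earlier results of these data known, so that its counts are a description. The median log2 difference of the 13 was -0.24 in each comparison with odor. Pi3K92E, the catalytic subunit of phosphatidylinositol 3-kinase, had 10.6 at the lowest, 11.7 at the median and 14.2 RPKM at the highest in sucrose heads, 12.0, 12.8 and 13.5 in sorbose heads, and 15.3, 19.7 and 27.2 in odor heads. No trained head reached the odor heads. It fell by 0.73 ± 0.11 in sucrose against odor (limma adjusted p = 0.00045) and by 0.64 ± 0.11 in sorbose against odor (adjusted p = 0.00222).

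Akt, the kinase that acts on FOXO, had 13.7, 14.9 and 19.9 RPKM at the lowest, median and highest in sucrose heads, 14.8, 16.4 and 18.4 in sorbose heads, and 17.6, 25.9 and 36.04 in odor heads. The groups overlapped at the lower end of the odor range. Akt fell by 0.73 ± 0.15 in sucrose against odor (limma adjusted p = 0.00221) and by 0.63 ± 0.15 in sorbose against odor (adjusted p = 0.00735). Pdk1, which activates Akt, fell by 0.45 ± 0.11 and 0.42 ± 0.11 in the same comparisons, the adaptor gene Lnk fell by 0.38 ± 0.08 and 0.29 ± 0.08, and sgg, the glycogen synthase kinase of the fly, fell by 0.33 ± 0.06 and 0.32 ± 0.06. The member of the list called higher, chosen here after its values were seen, was Sdr, a secreted decoy of the insulin receptor, at 6.54 ± 0.677 RPKM in sucrose heads and 5.34 ± 0.915 RPKM in odor heads (log2 difference 0.28 ± 0.10, limma adjusted p = 0.039). Without odor heads 1 and 6, 4 in place of 7 pathway genes were called in sorbose against odor, while the count over all genes fell to 910 in place of 2702 in that comparison and to 1615 in place of 3041 in sucrose against odor.

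Of 10 further genes known as FOXO targets or as responsive to insulin, 3 were called lower and 1 higher in each comparison with odor, and 0 between the sugars. Over all genes tested 14.4% were called lower and 13.1% higher in sucrose against odor, and 12.2% each way in sorbose against odor, so that the single gene called higher is no more than the background gives. The median log2 difference of the 10 was -0.16 in sucrose against odor and -0.04 in sorbose against odor. The gene bmm, the fat body triglyceride lipase Brummer, had 25.3, 57.9 and 98.3 RPKM at the lowest, median and highest in sucrose heads, 57.8, 85.1 and 121 in sorbose heads, and 133, 268 and 351 in odor heads. All trained heads lay below all odor heads. It fell by 2.21 ± 0.33 in sucrose against odor (limma adjusted p = 0.000391) and by 1.54 ± 0.33 in sorbose against odor (adjusted p = 0.00495).

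Sesn, the stress protein sestrin that restrains TOR signalling, fell by 0.92 ± 0.11 in sucrose against odor (limma adjusted p = 9.31e-05) and by 0.89 ± 0.11 in sorbose against odor (adjusted p = 0.000671). The gene srl, the fly PGC-1 that promotes mitochondrial genes, went the other way and had 2.72 ± 0.988 RPKM in sucrose heads, 2.64 ± 0.629 in sorbose heads and 1.26 ± 0.271 in odor heads (SD, n = 6 each). It rose by 0.84 ± 0.17 in sucrose against odor and by 0.83 ± 0.17 in sorbose against odor (limma adjusted p = 0.00245 and 0.00422). Lip4, a lipase gene, was called lower in sucrose against odor (-0.95 ± 0.28, adjusted p = 0.0201), while its difference in sorbose against odor was -0.09 ± 0.28 (adjusted p = 0.854), and its difference between the sugars did not pass (limma adjusted p = 0.252).

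Gnmt, an enzyme that consumes S-adenosylmethionine, had 0.897, 2.25 and 39.2 RPKM at the lowest, median and highest in sucrose heads, 0.129, 0.74 and 2.11 in sorbose heads, and 4.54, 11.2 and 44.7 in odor heads. The sucrose heads spanned nearly the whole range and the sorbose heads lay below all odor heads. Gnmt fell by 3.52 ± 0.71 in sorbose against odor (limma adjusted p = 0.00375), and the difference of -1.87 ± 0.71 in sucrose against odor did not pass (adjusted p = 0.0609).

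Of 15 genes for signals and factors that act on the insulin-producing neurons, 13 were tested. In sucrose against odor 2 were called higher and 1 lower, in sorbose against odor 1 higher and 1 lower, and between the sugars 0. These counts are near the shares of all genes called, which were 13.1% higher and 14.4% lower in sucrose against odor and 12.2% each way in sorbose against odor, so that they are no result about the list, and the values of the called genes are given as those of single genes. Their median log2 difference was -0.02 in sucrose against odor and 0.01 in sorbose against odor. Lst, the gene of limostatin, a peptide hormone that holds back insulin release during fasting, had 39.9, 82.4 and 97.2 RPKM at the lowest, median and highest in sucrose heads, 30.3, 62.3 and 75.6 in sorbose heads, and 98.4, 134 and 208 in odor heads. All odor heads lay above all trained heads. Lst fell by 0.90 ± 0.24 in sucrose against odor (limma adjusted p = 0.0118) and by 1.27 ± 0.24 in sorbose against odor (adjusted p = 0.00303).

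CCHa2, a nutrient-dependent peptide that stimulates the insulin-producing neurons, had 24.6 ± 10.2 RPKM in sucrose heads and 12.6 ± 7.11 RPKM in odor heads (log2 difference 1.02 ± 0.34, limma adjusted p = 0.0363). In sorbose heads it had 20.5 ± 7.34 RPKM (0.81 ± 0.34 against odor, adjusted p = 0.0944). The gene egr, the tumour necrosis factor of the fly, had 13.4 ± 1.42 RPKM in sucrose heads, 10.96 ± 0.505 in sorbose heads and 10.9 ± 0.57 in odor heads, and rose by 0.28 ± 0.06 in sucrose against odor (limma adjusted p = 0.00303). AkhR, the receptor of adipokinetic hormone, had 14.8 ± 2.66 RPKM in sorbose heads and 9.44 ± 3.75 RPKM in odor heads (0.69 ± 0.22, limma adjusted p = 0.0295). Without odor heads 1 and 6, 1 regulator was called in each comparison with odor, in place of 3 in sucrose against odor and 2 in sorbose against odor. The count in sorbose against odor was also 1 when any of odor heads 1, 3 or 6 or sorbose heads 3 or 4 was left out.

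**Figure D5:**
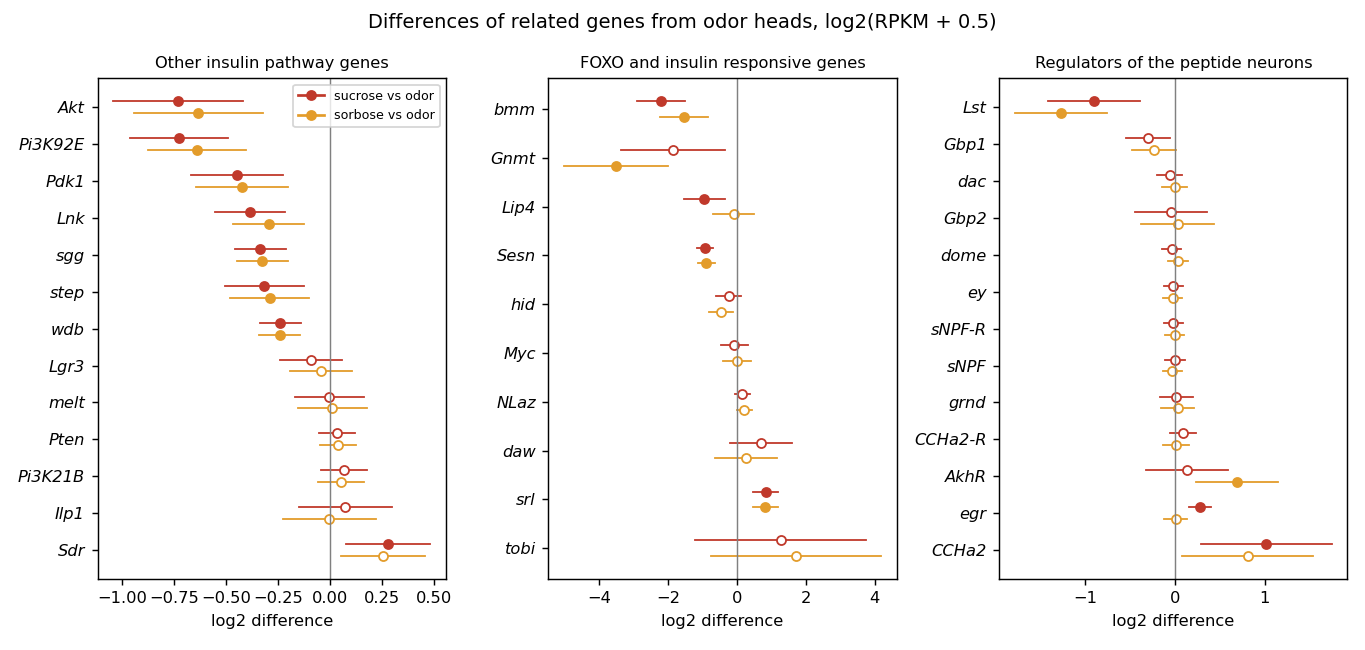
Log2 difference of log2(RPKM + 0.5), with 95% intervals from limma, for other pathway genes, FOXO or insulin responsive genes and regulators of the peptide neurons, in sucrose against odor (red) and sorbose against odor (orange). Filled points passed an adjusted p of 0.05, and each panel has its own horizontal axis. In the left panel 7 genes have filled points below 0 in both comparisons.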

How the data were processed

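Libraries of poly-A RNA from single fly heads did not keep the strand. The authors aligned reads with TopHat2 2.0.13 to dm6 and normalised with edgeR 3.18.1, per the submitters' processing notes. Another passage of the study's methods names dm3 and cuffdiff, and the deposited identifiers and exonic lengths match dm6. The deposited unit is RPKM, reads per kilobase of exon per M (1000000) mapped reads, scaled by the authors. Symbols and coordinates came from the Ensembl dm6 annotation. With recovered library sizes, 98.0% of the values of 17253 annotated genes were within 0.02 of a whole read, as were those of the 8 members in all heads. Reads were counted over whole genes. Of 240 deeply read genes nested in an intron without a shared exon, 0 had more reads than the host.

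Values were taken as log2(RPKM + 0.5), which understates changes of low genes, and genes averaging under 0.5 RPKM over the 18 heads were not tested. A model with 3 groups was fitted with limma 3.58.1 in R 4.3.3 (moderated test with a mean-variance trend, two-sided, Benjamini-Hochberg within each comparison, calls at 0.05 after adjustment). The groups shared a common estimate of the spread of each gene. The SE of a gene was therefore the same in every comparison, and holds the spread of the odor heads even between the sugars. The fit was also tested on simulated data with the same spread in every group, which cannot check it for unequal spreads. Correlations used 100000 permutations. Members and lists were chosen with earlier results of these data known. All members were described, and of each other list up to 4 called genes per comparison with the largest absolute log2 difference. The 3 genes with the highest r to each member were taken as most alike. Alternatives were other pseudocounts, scalings, filters and sample sets, a replicate block, sample quality weights and voom on recovered reads. No sequence was examined.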

Additional observations from a re-analysis of the deposited data

Results flagged for a closer look

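The sorbose head 1 had 12.1 RPKM of foxo, the lowest of its group, and stood apart from the other 5 sorbose heads by 0.735 of the group's range, past Dixon's critical value for a group of this size. This was 1 of 24 combinations of member and group checked, and chance alone marks about 1 in 20. Without sorbose head 1 the difference of foxo in sorbose against odor was -0.70 and was still called by limma.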

How the results depend on the processing

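The 4 calls of chico, foxo, Thor and ImpL2 in each comparison with odor held under all 11 alternatives and all 18 fits without 1 head. With sample quality weights 1 member (ImpL2) and 1 regulator passed between the sugars, where over all genes 308 passed in place of 1, with 19 after quantile normalization, 8 in fits of only the 2 groups, 2 with voom and between 1 and 49 without single heads (49 without sorbose replicate 2). Without the 2 odor heads highest on the first component, an alternative chosen after seeing the data, called pathway genes came to 4 in sorbose against odor and called regulators to 1 in each comparison with odor. Called regulators in sorbose against odor were also 1 in a fit of only the 2 groups and 1 to 3 without single heads. The direction of uncalled differences near 0 was unstable. Without those 2 odor heads, Ilp2 in sucrose against odor was -7.22e-05 and Ilp5 in sorbose against odor -0.0209. With sample quality weights, Ilp3 in sucrose against odor was 0.0481 and Ilp6 in sorbose against odor 0.0587. Thor in sucrose against sorbose was 0.00600 with median-of-ratios scaling, 0.026 with quantile normalization and 8.66e-05 with voom. Without single heads, the ranges were -0.0234 to 0.0255 for Ilp2 and -0.0879 to 0.0669 for Ilp3 in sucrose against odor, -0.249 to 0.0358 for Ilp6 in sorbose against odor, and -0.0317 to 0.379 for Ilp5, -0.179 to 0.00406 for foxo and -0.0927 to 0.0849 for Thor in sucrose against sorbose, and the adjusted p of ImpL2 between the sugars was 0.0722 to 0.248. Of the 28 pairs of members, 2 in place of 3 passed by Pearson's r without the 2 farthest heads. The cause of these changes was not tested. Same-numbered heads were compared over genes by their deviations from the group means. These deviations correlated at -0.343 to 0.232 in sucrose against odor, -0.273 to 0.19 in sorbose against odor and -0.161 to 0.442 in sucrose against sorbose. As only 3, 2 and 2 of 6 pairs were over 0.1, the numbers were not taken to pair heads. The replicate block gave 4, 4 and 0 called members and changed no call of a member. Ilp5 had as few as 97 reads in a head, and its intervals were the widest of the members.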
